A study of Rattus norvegicus with 23 samples.

Results

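Lysine transfer RNAs (tRNAs) were followed in small RNA libraries of sperm taken from the cauda epididymis of Long-Evans rats, all males. The 16 rows of the tRNA table whose names begin with tRNA-Lys were taken, of 273 rows in all. By anticodon, written in DNA letters, 10 rows were Lys-CTT and 6 were Lys-TTT. The 3 rows of tRNA-like sequences named tRX-Lys were left out, and all 16 lysine rows were above 0 in each of the 23 libraries.

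The libraries came from 7 rats given filtered air (Air), 8 given 0.4 ppm ozone and 8 given 0.8 ppm ozone. Each library was made from a different rat, so the spread within a group covers rats together with library preparation and sequencing. Per the labels, exposures lasted 4 h, with 3 in week 1 and 2 in week 2, at chamber means of 0.401 and 0.798 ppm in the ozone chambers. The design text gives 8 rats per group, and 7 Air libraries were analysed here. Strain, sex and exposure schedule were shared by all groups, and the sources used here do not give the rats' age. The comparisons asked whether inhaled ozone was accompanied by a different lysine tRNA signal in sperm.

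A tRNA carries an amino acid to the ribosome and reads the codon through its anticodon. Lys-CTT reads the codon AAG, and Lys-TTT reads AAA and, by wobble, also AAG. Mature sperm make little protein, and much of their small RNA consists of fragments cut from tRNAs in the anticodon loop, part of it gained from epididymal vesicles during passage to the cauda. Fragments of glycine and glutamate tRNAs are the best known of these. In tRNA row names, the first number after the anticodon marks an isodecoder, a group of genes with the same mature sequence, and the second marks the gene copy. The table gives 1 value per row and no position within the tRNA, so whole tRNAs and fragments could not be told apart. Rows were not matched to gene positions, and no tRNA sequence was read here. RefSeq annotation of the GRCr8 build lists 16 lysine genes with the CUU anticodon and 9 with UUU. Their median length is 73 bases, the length of 15 of the CUU genes and all 9 UUU genes.

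The deposited values were whole multiples of 1 step in each library, so that 1 read was worth 0.460 to 2.42 normalised units. Whole reads recovered from them numbered 164342 to 481504 per library in the tRNA table. Sperm and late germ cell miRNAs, a list of 7 of which 6 were measured, held 23.6% to 49.7% of the miRNA table. The measured markers of other cells held 0.680% to 3.21% for epithelium (5 of 5), 0.0218% to 0.108% for leukocytes (4 of 4), 0.00589% to 0.141% for erythroid cells (2 of 3) and 1.53% to 11.3% for muscle and stroma (3 of 4). The sperm list was lowest in the 0.4 ppm replicate 5 and 0.8 ppm replicate 7 libraries, with 23.6% and 23.9%. The muscle and stroma list stood at 4.17% and 11.3% in these libraries. In bulk sperm RNA, fewer cells of a type and less RNA per cell cannot be told apart.

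The libraries also fall into 2 sets that the labels do not name. The library names end in a number from S1 to S12, and all but S2 occur on 2 libraries. In the miRNA table the first 11 columns and the last 12 each hold no such number more than once. The first block of columns holds 2 Air, 4 0.4 ppm and 5 0.8 ppm libraries, and the second holds 5, 4 and 3. What these blocks are, and what set the order of the columns, is not stated. Lysine rows differed between the blocks: their sum averaged 4566 ± 507 normalised units in the first and 3563 ± 511 in the second (SD, n = 11 and 12). Differences were not confined to lysine. The top 10 tRNA rows held 60.2% ± 3.45 of reads in the first block and 63.9% ± 2.10 in the second (SD). Sperm miRNAs held 36.5% ± 8.84 and 40.9% ± 4.48 of the miRNA table, in the same order (SD). Since the groups are unevenly divided, results are also given with the block in the model or within each block.

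Lysine rows were a minor share of the sperm tRNA signal. They held 1.06% ± 0.356 of the table's reads in Air sperm, 1.22% ± 0.437 at 0.4 ppm and 1.39% ± 0.487 at 0.8 ppm (SD, n = 7, 8 and 8 rats). The lowest, median and highest rats were 0.805%, 0.954% and 1.82% in Air. At 0.4 ppm they were 0.659%, 1.09% and 1.98%, and at 0.8 ppm 0.672%, 1.55% and 1.95%. The 3 groups overlapped over most of their range. In the first column block the means were 1.41% in Air, 1.47% at 0.4 ppm and 1.62% at 0.8 ppm (n = 2, 4 and 5). In the second they were 0.925%, 0.970% and 1.01% (n = 5, 4 and 3). Over all libraries lysine ranked 9th of 35 isotypes, with 1.23% of reads. Glycine tRNAs, ranked first, held 40.1%, and arginine tRNAs, whose amino acid is also basic, ranked 10th with 0.915%. The arginine share was 0.904% ± 0.197 in Air sperm, 0.810% ± 0.161 at 0.4 ppm and 1.03% ± 0.271 at 0.8 ppm (SD). The best-known sperm families stood far above lysine, Gly-GCC with 31.8% and Glu-CTC with 7.21% of reads over all libraries. Counting error was small beside the spread between rats: in the shallowest library, 1104 of 164342 reads were lysine reads, a share of 0.672% with a 95% Wilson interval of 0.633% to 0.712%. Such intervals cover counting error only.

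Most of the lysine signal was Lys-TTT. Lys-TTT supplied 73.6% ± 3.45 of the summed lysine level in Air sperm, 73.1% ± 6.21 at 0.4 ppm and 73.1% ± 5.67 at 0.8 ppm (SD, n = 7, 8 and 8). Among 55 anticodon families Lys-TTT ranked 15th with 0.900% of the table's reads, and Lys-CTT ranked 21st with 0.331%. The ratio of the Lys-TTT to the Lys-CTT sum was 2.84 ± 0.526 in Air, 2.93 ± 1.06 at 0.4 ppm and 2.85 ± 0.720 at 0.8 ppm (SD). Its extremes over the 23 libraries were 1.60 in 0.8 ppm replicate 8 and 4.82 in 0.4 ppm replicate 3. Lys-TTT was above Lys-CTT in every library, although it has fewer rows.

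The Lys-TTT rows covered a wide range of levels. TTT-1-2 was the highest lysine row and ranked 48th of 273 rows, with 0.257% of reads on average. Its lowest, median and highest normalised values were 563, 698 and 1147 in Air, 563, 889 and 1327 at 0.4 ppm, and 453, 889 and 1112 at 0.8 ppm. TTT-1-3 ranked 49th with 0.253%, and its normalised values were 495, 649 and 1218 in Air, 536, 892 and 1251 at 0.4 ppm, and 525, 852 and 1131 at 0.8 ppm. In both rows the ozone medians lay above the Air median, and the groups overlapped, since the highest Air rat exceeded every 0.8 ppm rat.

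TTT-1-4 and TTT-1-1, copies of the same isodecoder, ranked 65th and 66th with 0.150% and 0.146% of reads. The lowest, median and highest values of TTT-1-4 were 405, 512 and 649 in Air, 379, 444 and 716 at 0.4 ppm, and 368, 484 and 565 at 0.8 ppm. Here the ozone medians lay below the Air median, again with overlap. TTT-2-1, a second isodecoder, held 0.0779% of reads, with normalised values of 226, 287 and 369 in Air, 135, 241 and 363 at 0.4 ppm, and 167, 247 and 320 at 0.8 ppm. TTT-3-1, a further isodecoder, was the lowest lysine row, at rank 166 and 0.0161% of reads. The 4 copies of TTT-1 together made up 64.5% ± 3.86 of the lysine sum in Air sperm, 65.7% ± 5.99 at 0.4 ppm and 65.4% ± 4.25 at 0.8 ppm (SD).

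The Lys-CTT rows lay close together and low, with ranks of 118 to 135. CTT-1-4, CTT-1-1 and CTT-1-8 were the highest, with 0.0413%, 0.0411% and 0.0408% of reads. The normalised values of CTT-1-4 were 90.9, 119.7 and 181 in Air, 91.6, 125 and 182 at 0.4 ppm, and 99.2, 120.3 and 218 at 0.8 ppm, as lowest, median and highest. These groups covered nearly the same range. The other 7 rows, CTT-2-1 among them, held 0.0290% to 0.0310% each, and no CTT row had more than 346 reads in any library. CTT-1-7, for example, had 57.7, 87.2 and 112 in Air, 62.6, 102 and 142 at 0.4 ppm, and 60.9, 79.1 and 203 at 0.8 ppm. Its highest value, in 0.8 ppm replicate 8, came from the library with the highest Lys-CTT sum.

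**Figure D1:**
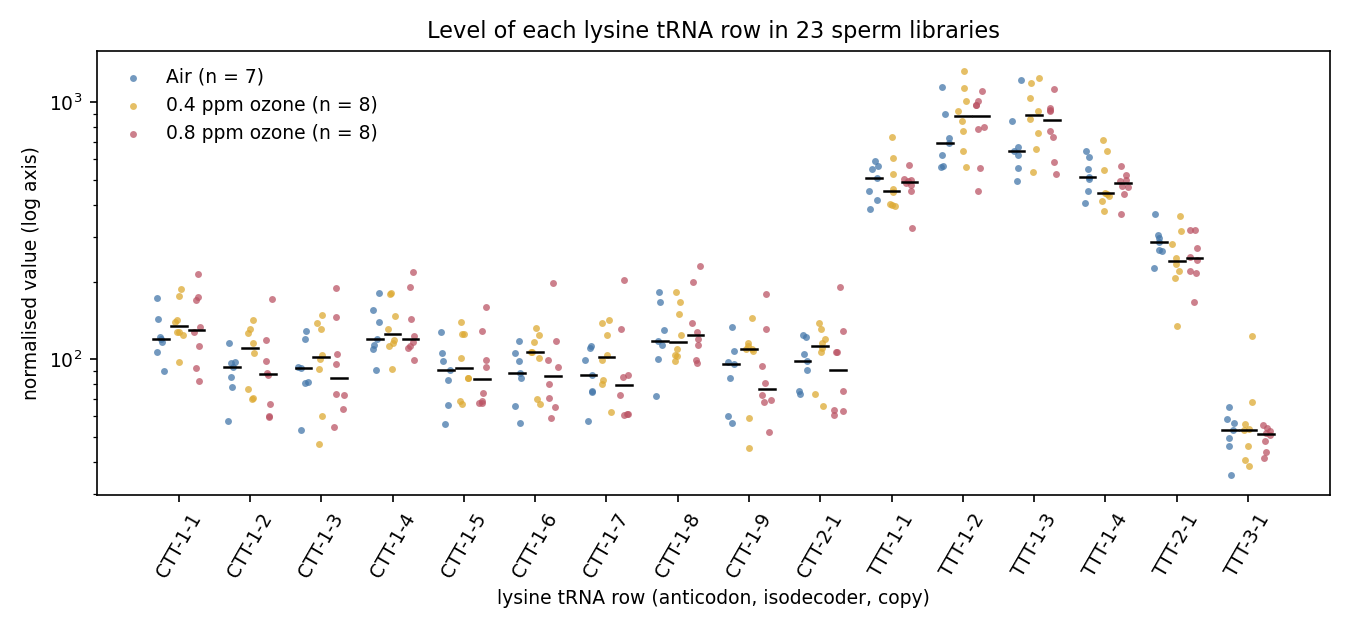
Normalised value (log axis) of each of the 16 lysine tRNA rows, with 1 point per rat and a black bar at the group median, for Air (n = 7), 0.4 ppm ozone (n = 8) and 0.8 ppm ozone (n = 8). TTT-1-2 and TTT-1-3 are highest, TTT-3-1 is lowest with 1 high rat at 0.4 ppm, and the groups overlap in every row.

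Rows with the same isodecoder number did not all vary together from rat to rat. To describe this, the SD over the 23 libraries of the log2 ratio between 2 rows was set beside the SD that counting error alone would give. That counting SD takes the reads of each row as counted separately, and reads shared among copies would change it. TTT-1-1 and TTT-1-4 kept a near-constant ratio, with an SD of 0.0872 against 0.0977 from counting. TTT-1-2 and TTT-1-3 did too, with 0.0971 against 0.0780. Between these pairs the SD was 0.410 to 0.438, with a median of 0.42 against 0.0884 from counting, although all 4 rows share 1 isodecoder number. The pairs were picked out after their values were seen, so no test was made.

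The signal assigned to the TTT-1-2 and TTT-1-3 pair, relative to the TTT-1-1 and TTT-1-4 pair, varied widely between rats. By their isodecoder number the rows of both pairs have the same mature sequence. Their ratio thus compares signal as assigned to rows, and not the levels of different mature tRNAs. Read assignment was not given, and what set the pairs apart was not tested. The ratio of the pair sums was 1.04, 1.46 and 1.90 as lowest, median and highest in Air, 1.22, 1.67 and 3.16 at 0.4 ppm, and 1.25, 1.70 and 2.34 at 0.8 ppm. All 23 libraries had a ratio above 1, and the highest value, 3.16, was in 0.4 ppm replicate 6. The groups overlapped, and the mean was 1.44 ± 0.340 in Air, 1.90 ± 0.711 at 0.4 ppm and 1.73 ± 0.398 at 0.8 ppm (SD). The ratio averaged 2.05 ± 0.521 in the first column block and 1.38 ± 0.269 in the second (SD, n = 11 and 12). Within the first block its mean was 1.74 in Air, 2.32 at 0.4 ppm and 1.96 at 0.8 ppm, and within the second 1.31, 1.47 and 1.35. The median SD of the log2 ratio between the pairs was 0.360 within the first block and 0.278 within the second, both above the 0.0884 that counting gives over all libraries. TTT-2-1 followed TTT-1-1 and TTT-1-4 more closely than it followed the other pair, with median SDs of 0.207 and 0.574 where counting gives 0.118 and 0.111.

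Lys-CTT showed a weaker split. Within CTT-1-1, CTT-1-4 and CTT-1-8 the SD of the log2 ratio was 0.187 to 0.232, against 0.192 from counting. Within the other 7 rows it was 0.143 to 0.269, against 0.227. Between both sets it was 0.257 to 0.402, with a median of 0.334 against 0.210. CTT-2-1 lay within the larger set although its isodecoder number differs. The mean of CTT-1-1, CTT-1-4 and CTT-1-8 was 1.41 ± 0.205 times that of the other 7 rows in Air sperm, 1.36 ± 0.334 times at 0.4 ppm and 1.50 ± 0.218 times at 0.8 ppm (SD). Across anticodons, the 60 pairs of a CTT and a TTT row had SDs of 0.355 to 0.726, with a median of 0.521 against 0.173 from counting.

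The table's other tRNA rows gave 274 pairs with a shared isodecoder number, in 42 isodecoders. Of these, 224 (81.8%) had an SD of no more than 2 times the counting SD. In the same measure 36 of 36 CTT-1 pairs were within that limit and 2 of 6 TTT-1 pairs were. No test of this difference was made, since pairs share rows. The limit is also wider for rows with fewer reads, so these counts do not compare the spread itself. CTT-1-3 with CTT-1-4 was within it at an SD of 0.402, where counting gives 0.211. TTT-1-1 with TTT-1-3 was not at 0.410, where counting gives 0.0889. The nearest rows outside lysine, by SD of the log2 ratio, were Leu-TAA-1-1 for TTT-1-4 (0.186) and for TTT-1-1 (0.215), and Met-CAT-2-1 for TTT-1-3 (0.211) and for TTT-1-2 (0.238). For all 10 CTT rows the 3 nearest rows of the whole table were other CTT rows.

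**Figure D2:**
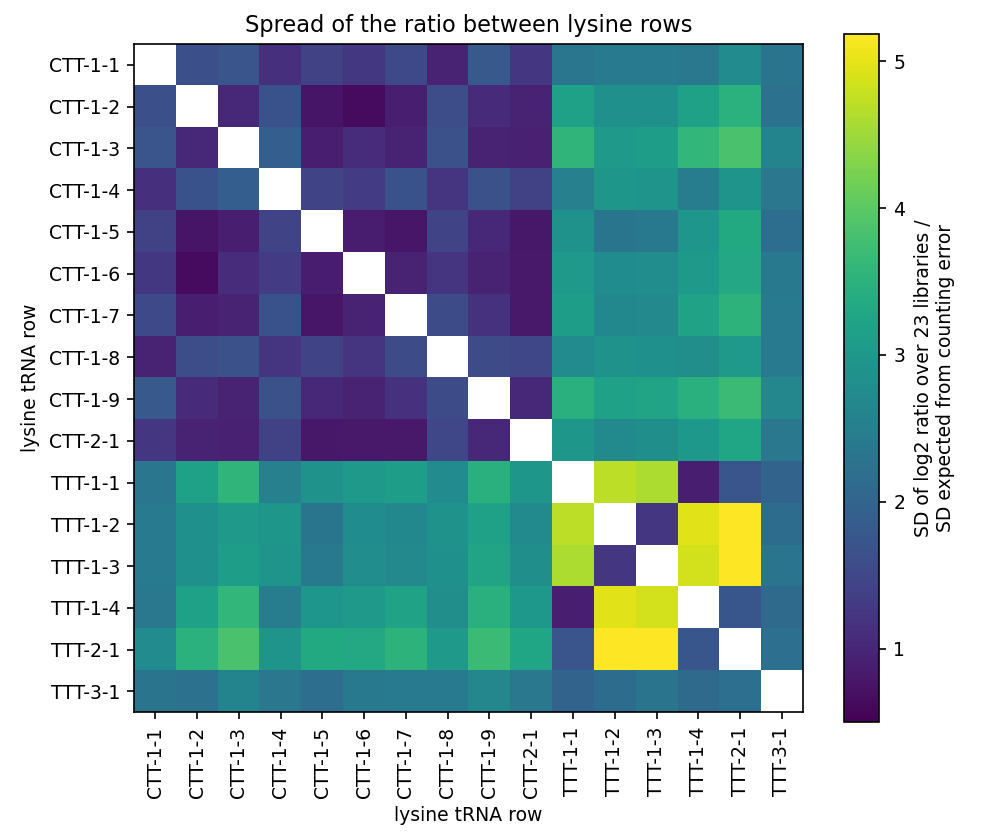
For each pair of lysine rows, the SD over 23 libraries of their log2 ratio, divided by the SD that counting error alone gives (colour). Values near 1 mark pairs whose ratio varied as much as counting of separate reads gives, as TTT-1-1 with TTT-1-4 and most CTT pairs did. TTT-1-2 and TTT-1-3 stand apart from the other TTT rows.

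TTT-3-1 was high in a single rat. Its lowest, median and highest normalised values were 35.4, 52.9 and 65.0 in Air, 38.6, 53.3 and 123 at 0.4 ppm, and 41.1, 51.1 and 55.6 at 0.8 ppm. The value of 123, from 106 reads, was in 0.4 ppm replicate 5, and the next in that group was 68.2. Of all other rows, tRX-Lys-NNN-20-1 kept the most constant ratio to TTT-3-1, with an SD of the log2 ratio of 0.277 against 0.306 from counting. Arginine rows came close: Arg-CCT-2-2 had 0.305 against 0.290, and Arg-CCT-1-1 had 0.307 against 0.284. This tRX row had 132 normalised units, from 114 reads, in the same library, against 40.3 to 59.4 in the other 0.4 ppm libraries. That library had the lowest share of sperm miRNAs, 23.6%, with 4.17% for muscle and stroma. It had 1.05% for epithelium, 0.0218% for leukocytes and 0.00589% for erythroid cells. The library with the next lowest sperm share, 0.8 ppm replicate 7 with 23.9%, had 11.3% for muscle and stroma. Its TTT-3-1 value was 55.6, from 37 reads, the highest at 0.8 ppm. The part of other cells in the value of 123 was not tested.

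The median within-group SD on the log2 scale was 0.417 for the 16 lysine rows and 0.492 for all 273 rows. Lys-CTT rows had a median of 0.435 and Lys-TTT rows 0.345. The TTT rows were not uniform: TTT-1-2 and TTT-1-3 had 0.417 and 0.409, and TTT-1-1 and TTT-1-4 had 0.269 and 0.258. Counting alone gives 0.135 to 0.164 for CTT rows and 0.0552 to 0.209 for TTT rows.

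Ozone at 0.4 ppm moved no lysine row past the threshold. In limma's moderated test on log2(value + 1), 0 of 16 lysine rows had a Benjamini-Hochberg adjusted p under 0.05, where 0.0% of the table's 273 rows did. At an unadjusted p under 0.05, the count was also 0 of 16, against 5.86% of all rows. The same lysine counts of 0, adjusted and unadjusted, came from an exact permutation test, edgeR and DESeq2. With limma's library quality weights, which give less weight to libraries far from the fit, 0 of 273 rows were called. Under these weights 1 of 16 lysine rows had an unadjusted p under 0.05, against 31 of all 273 rows. Of the lysine rows, 13 had a positive log2 difference, all 10 CTT rows among them, where 48.0% of all rows did. Their median difference was 0.12, and that of all rows -0.01. The CTT rows varied together and may share reads, so their signs are not 10 separate results. Within the column blocks the Lys-CTT sum differed from Air by -0.25 in the first and 0.38 in the second. The marker lists also differed: sperm miRNAs held 34.8% ± 5.94 of the miRNA table at 0.4 ppm and 41.4% ± 5.11 in Air, epithelial ones 1.77% ± 0.713 and 1.13% ± 0.325, and muscle and stroma ones 2.85% ± 0.704 and 1.94% ± 0.522, in the same order (SD). Leukocyte miRNAs held 0.0750% at 0.4 ppm and 0.0616% in Air, and erythroid ones 0.0586% and 0.0338%. Their part in the lysine differences was not tested.

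The lysine row with the smallest p at 0.4 ppm was TTT-1-3. Its normalised value averaged 904 ± 252 at 0.4 ppm and 723 ± 244 in Air (SD, n = 8 and 7), a log2 difference of 0.33 ± 0.22 (SE) with an adjusted p of 0.779 in limma. TTT-1-2, its near-constant partner, differed by 0.27 ± 0.22. TTT-2-1 differed in the other direction, by -0.24 ± 0.19, with means of 251 ± 69.8 at 0.4 ppm and 288 ± 44.1 in Air (SD). Without 0.4 ppm replicate 6 its difference was -0.12. Each of these differences lay within the spread between rats.

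Ozone at 0.8 ppm moved no lysine row past the threshold either. Again 0 of 16 lysine rows were called by limma, against 0.0% of all rows, and 0 had an unadjusted p under 0.05, against 1.83% of all rows. The exact permutation test, edgeR and DESeq2 likewise gave 0 lysine rows, adjusted or unadjusted. A positive difference was found for 10 of 16 lysine rows, where 47.6% of all rows were positive, and the lysine median was 0.03. TTT-2-1 had the smallest p, with means of 251 ± 52.0 at 0.8 ppm and 288 ± 44.1 in Air (SD, n = 8 and 7). Its log2 difference was -0.21 ± 0.19 (SE), adjusted p = 0.935 in limma. TTT-1-3 differed by 0.20 ± 0.22 and TTT-1-4 by -0.13 ± 0.18. With library quality weights, 22 of 273 rows were called in this contrast, none of them lysine. Under these weights 2 of 16 lysine rows had an unadjusted p under 0.05, against 63 of all 273 rows. The smallest adjusted p among lysine rows was then 0.073, for TTT-1-3 at a difference of 0.48. With the column block in the model TTT-1-3 differed by -0.022. Both ozone groups were set against the same 7 Air rats, so the differences in these comparisons are not independent of each other.

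Between the ozone doses no lysine row was called. For 0.8 ppm against 0.4 ppm, limma called 0 of 16 lysine rows and 0.0% of all rows, and the unadjusted count was 0 of 16, against 2.2% of all rows. The exact permutation test, edgeR and DESeq2 gave 0 lysine rows as well. A positive difference was found for 3 of 16 lysine rows, where 48.4% of all rows were positive. The smallest p was that of CTT-1-7, which averaged 95.4 ± 49.5 at 0.8 ppm and 104 ± 28.9 at 0.4 ppm (SD, n = 8 each), a log2 difference of -0.21 ± 0.23 (SE) with an adjusted p of 0.923. CTT-1-2 differed by -0.19 ± 0.22 and TTT-3-1 by -0.18 ± 0.21. Without the 0.4 ppm replicate 5 library, the TTT-3-1 difference was -0.02.

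A linear trend with ppm was also fitted, in log2 units per ppm. With equal weight for every library, limma called 0 of 16 lysine rows and 0.0% of all rows, with 0 lysine rows and 1.83% of all rows at an unadjusted p under 0.05. edgeR and DESeq2 gave 0 lysine rows too. The slope of TTT-2-1 was -0.25 ± 0.24, that of TTT-1-3 0.24 ± 0.28 and that of TTT-1-4 -0.16 ± 0.22 (SE, n = 23), and the smallest adjusted p was 0.944. With library quality weights, the slope of TTT-1-3 became 0.64 ± 0.22 with an adjusted p of 0.0439. Under those weights 32 of 273 rows were called in the trend, and TTT-1-3 was the only lysine row among them. The call was not kept with the column block in the model: the slope was then 0.049 with weights, at an adjusted p of 0.911, and -0.043 without. With weights and block together, 0 of 273 rows were called in any contrast.

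**Figure D3:**
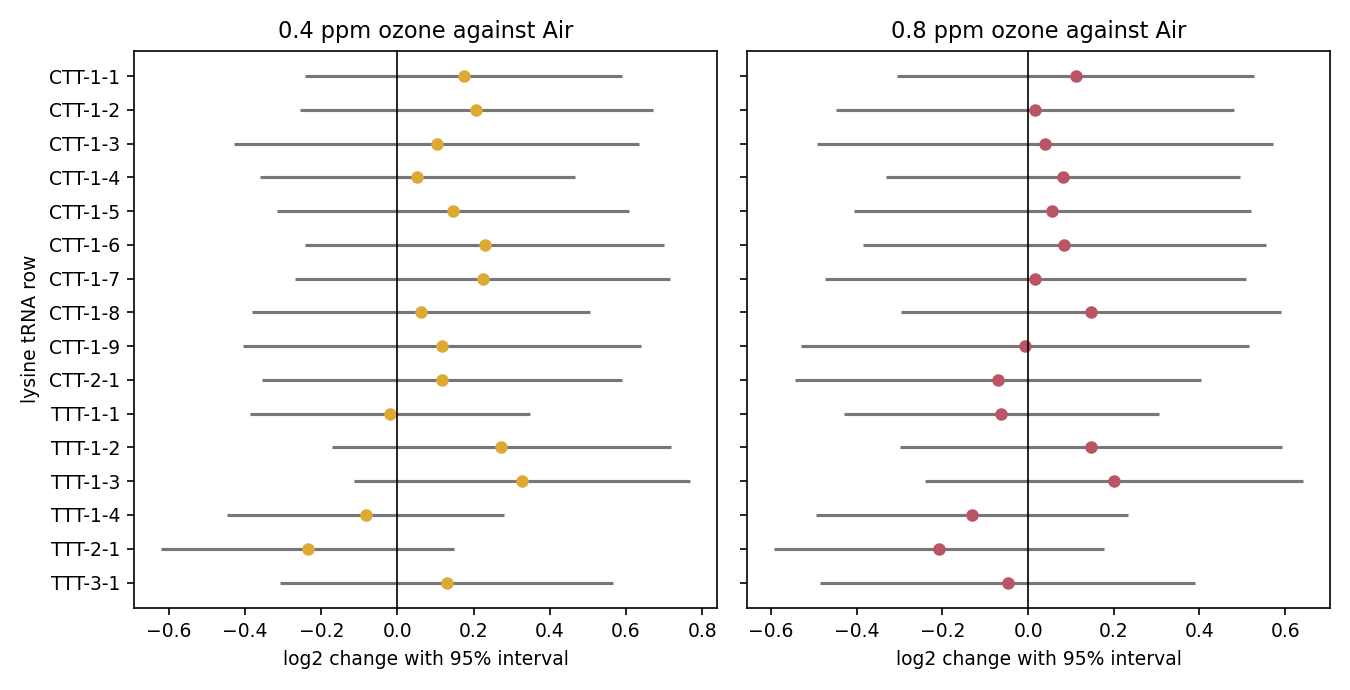
Log2 difference on the log2(value + 1) scale (points) with its 95% interval (lines) for each lysine row, 0.4 ppm ozone against Air on the left and 0.8 ppm ozone against Air on the right, from limma with 8 ozone and 7 Air rats in each panel. Every interval includes 0.

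Summed over rows, which is less affected by how reads were divided among near-identical copies, the lysine level did not pass the test in any of these contrasts. The sum of all 16 rows was 3851 ± 752 normalised units in Air, 4248 ± 572 at 0.4 ppm and 4003 ± 838 at 0.8 ppm (SD, n = 7, 8 and 8). The lowest, median and highest rats were 3137, 3552 and 5326 in Air, 3262, 4271 and 4928 at 0.4 ppm, and 2672, 4093 and 5102 at 0.8 ppm. The highest rat of all was an Air rat and the lowest an 0.8 ppm rat. At 0.4 ppm the log2 difference from Air was 0.15, with a 95% interval of -0.19 to 0.49 and an adjusted p of 0.597 over 35 isotypes in limma. At 0.8 ppm it was 0.05, with an interval of -0.30 to 0.39 and an adjusted p of 0.896. Between 0.8 and 0.4 ppm it was -0.10, with an interval of -0.43 to 0.23 and an adjusted p of 0.904. In this fit a difference larger than 0.494 on the log2 scale in either direction lay outside all 3 intervals. That bound does not carry over to other scalings: with each library scaled to its own tRNA total, the 0.8 ppm difference from Air was 0.35. With the column block in the model the differences were 0.070 at 0.4 ppm and -0.080 at 0.8 ppm against Air, and -0.15 between the doses. The sign at 0.8 ppm thus turned, and it was also negative within each block, -0.097 in the first and -0.12 in the second. None passed the test.

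Neither anticodon family passed the test as a sum. The Lys-CTT sum was 1019 ± 230 normalised units in Air, 1129 ± 248 at 0.4 ppm and 1094 ± 424 at 0.8 ppm (SD). Its log2 difference from Air was 0.15 at 0.4 ppm and 0.06 at 0.8 ppm, with adjusted p of 0.705 and 0.922 over 55 families in limma. The Lys-TTT sum was 2832 ± 569 in Air, 3119 ± 564 at 0.4 ppm and 2909 ± 529 at 0.8 ppm (SD). Its differences from Air were 0.14 and 0.04, with adjusted p of 0.692 and 0.922. Without the 0.8 ppm replicate 8 library, the Lys-CTT difference at 0.8 ppm was -0.076. The column blocks gave different signs for Lys-CTT between 0.8 and 0.4 ppm, 0.28 in the first (n = 5 and 4) and -0.62 in the second (n = 3 and 4). In the second block the adjusted p in limma was 0.118 for that sum. There 7 of 16 lysine rows had an unadjusted p under 0.05, against 47 of all 273 rows, with 0 called.

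Shares and normalised levels placed the 0.8 ppm group differently. The mean lysine share was higher at 0.8 ppm than at 0.4 ppm, while the normalised sum was lower. The normalised total of the whole tRNA table averaged 373594 ± 45278 in Air, 373679 ± 83490 at 0.4 ppm and 309559 ± 82638 at 0.8 ppm (SD). The 10 highest rows held 64.1% of reads in Air, 62.9% at 0.4 ppm and 59.6% at 0.8 ppm. When each library was instead scaled to its own total of tRNA reads, the median difference of all rows between 0.8 ppm and Air was 0.28 on the log2 scale, and that of the lysine sum was 0.35. Between 0.8 and 0.4 ppm these were 0.27 and 0.18, so the sign of the lysine difference turned while the lysine sum lay below the median row.

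**Figure D4:**
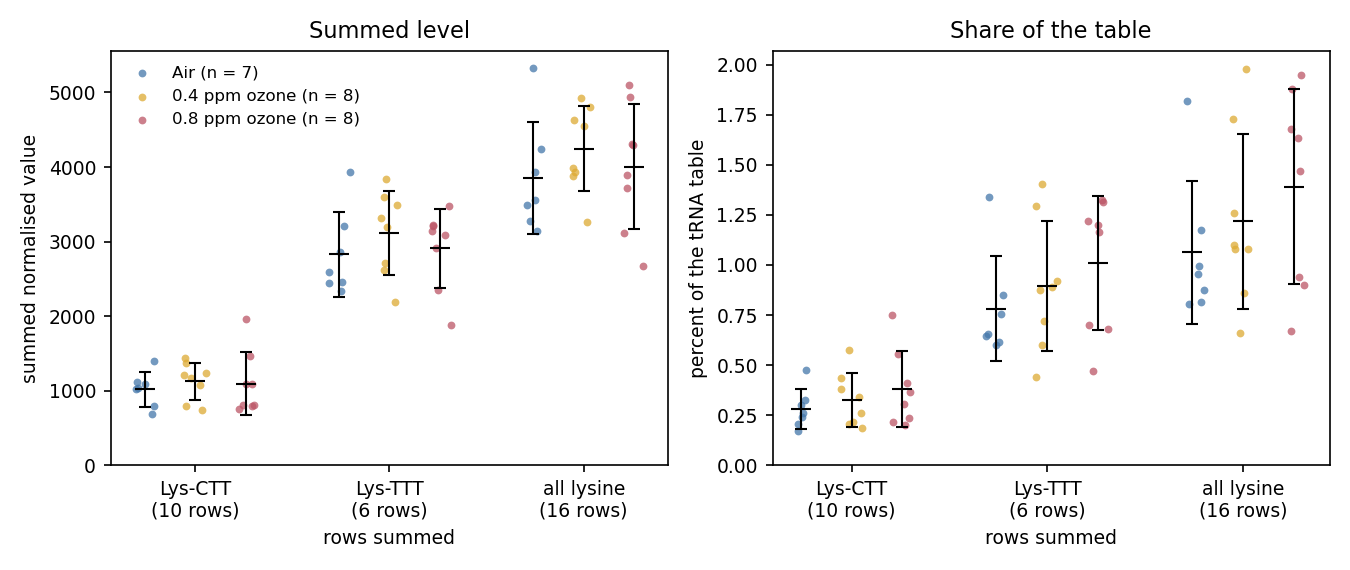
Summed normalised value (left) and percent of tRNA reads (right) of Lys-CTT, Lys-TTT and all lysine rows, with 1 point per rat and bars at the mean ± SD, for Air (n = 7), 0.4 ppm (n = 8) and 0.8 ppm ozone (n = 8). The mean share of all lysine rows is 1.06%, 1.22% and 1.39%, while the mean sums are 3851, 4248 and 4003, and the groups overlap in every column.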

How the data were processed

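Small RNA of sperm pellets was isolated with mirVana reagents and sequenced from CleanTag libraries on an Illumina NextSeq, per the labels' protocols. Partek, Bowtie 1.0.0 and genome build rn6 appear in the submitters' processing notes. Read assignment to tRNA rows was not given in the sources used here. All deposited values used are a normalised read signal for 273 tRNA and 425 miRNA rows; the normalisation by the authors leaves the same median ratio to the geometric mean in all libraries of the tRNA table. Dividing the deposited signal by the step between values gave whole reads, within 0.1 of a read, for 99.98% of 6279 tRNA values. Few tRNA values were low enough to fix that step firmly, so edgeR 4.0.16 and DESeq2 1.42.0 on those reads served only as alternatives, and count intervals rest on it.

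The main test was limma 3.58.1 (R 4.3.3) on log2(value + 1) of all rows above 0 in at least 8 libraries, all 3 groups in 1 model, with trend and robust moderation, two-sided, Benjamini-Hochberg adjusted over the table. The log2(value + 1) scale understates differences of low rows. Near-identical tRNA genes can share reads, so single rows are uncertain. The rows and lists were chosen with earlier results of these data known. Rows named with values are the 3 highest of each anticodon, the lowest lysine row, and the 3 with the smallest p in each contrast; TTT-1-1, CTT-1-6 and the sets of co-varying rows were added after values were seen. Sequencing runs are not labelled, so the main model has no batch term; 2 column blocks of the miRNA table, read from its header, were tried as a covariate after seeing the data. The piRNA and Ensembl tables were not used.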

Additional observations from a re-analysis of the deposited data

Results flagged for a closer look

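Of 60 group values screened over 20 items, 4 had a highest rat that stood apart from its group by Dixon's criterion, which chance meets in about 1 in 20 groups. CTT-1-6 had 199 normalised units in 0.8 ppm replicate 8, where the next rat of the group had 118. TTT-3-1 had 123 units in 0.4 ppm replicate 5, where the next had 68.2. The share of all lysine rows was 1.82% in Air replicate 1, against 1.18% for the next Air rat, and the Lys-TTT share was 1.34% in the same library, against 0.852%. Without that library the mean lysine share in Air was 0.937%.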

How the results depend on the processing

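The count of called lysine rows was 0 in all contrasts under every alternative run except limma's library weights, where 1 row, TTT-1-3, was called in the trend (0.64 per ppm) and not once the column block was added; the cause was not tested. No row fell under the filter and no rows were identical, so leaving the filter out or merging identical rows changed nothing. Scaling each library to its own tRNA total turned 0.8 against 0.4 ppm to 0.18 for all lysine rows, 0.19 for Lys-CTT and 0.18 for Lys-TTT, CTT-1-7 to 0.070, CTT-1-2 to 0.085 and TTT-3-1 to 0.10; it turned 0.8 ppm against Air to 0.093 for TTT-2-1 and 0.17 for TTT-1-4, and their trends to 0.13 and 0.22. It moves the median of all rows as well. Quantile normalisation turned all lysine rows to -0.020 at 0.8 ppm against Air and -0.032 in the trend, and Lys-TTT to 0.042 for 0.8 against 0.4 ppm, where library weights gave 0.026.

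The column blocks, tried after seeing the data, turned more signs, with no call. In the order all lysine, Lys-CTT and Lys-TTT, the block as covariate gave -0.080, -0.021 and -0.11 at 0.8 ppm against Air and -0.11, -0.035 and -0.14 in the trend, and with library weights as well -0.082, -0.099 and -0.082, and -0.081, -0.080 and -0.095. The first block alone gave -0.059, -0.25 and -0.012 at 0.4 ppm against Air, -0.097 and -0.16 for all lysine and Lys-TTT at 0.8 ppm and -0.12 and -0.23 in their trends, and 0.28 for Lys-CTT between the doses. The second gave -0.12, -0.24 and -0.082 at 0.8 ppm and -0.10, -0.19 and -0.076 in the trend. TTT-1-3 turned to -0.022 at 0.8 ppm and -0.043 in the trend with the covariate, and to -0.13 and -0.24 in the first block. Between the doses CTT-1-7 and CTT-1-2 turned to 0.096 and 0.12 in the first block, and TTT-3-1 to 0.069 in the second.

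Shares taken without the rows of the 3 families Gly-GCC, Gly-CCC and Leu-CAA were, in Air, at 0.4 and at 0.8 ppm, 2.62%, 2.74% and 3.01% for lysine, 0.694%, 0.733% and 0.821% for Lys-CTT, and 1.92%, 2.01% and 2.19% for Lys-TTT, by the smaller denominator. Leaving out 1 library at a time gave no call, and the summed differences ranged, for 0.8 ppm against Air, from -0.0065 to 0.13 (all lysine), -0.076 to 0.14 (Lys-CTT) and -0.0056 to 0.12 (Lys-TTT), and for the trend from -0.011 to 0.16, -0.095 to 0.15 and -0.020 to 0.15, in the same order. For 0.4 ppm against Air they ranged from 0.11 to 0.23, 0.057 to 0.23 and 0.093 to 0.22, with the highest values without Air replicate 1 and the lowest without Air replicates 5 and 3 and 0.4 ppm replicate 3, and for 0.8 against 0.4 ppm from -0.16 to -0.024, -0.22 to -0.027 and -0.17 to -0.016, with the smallest differences without 0.8 ppm replicates 5, 3 and 5. Leaving out together both libraries with the lowest sperm miRNA share, an alternative chosen after seeing the data, also gave 0 called lysine rows and no change of sign. No paired analysis was possible because the replicate numbers used here follow accession order, the labels number only the rats, and each library is a different rat. Depth limits the CTT rows and TTT-3-1 most, where a row had as few as 17 reads.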
